A study of Homo sapiens with 9 samples.

Results

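The 10 genes described here encode the enzymes that make serine, move its carbon through folate and make asparagine: PHGDH, PSAT1, PSPH, SHMT1, SHMT2, MTHFD1, MTHFD2, MTHFD1L, ALDH1L2 and ASNS. They were matched by symbol among the 56541 genes of the count table, and all 10 were found. They were chosen as a group with the knock-down values of these same libraries known, so their knock-down values are given as a description, without a test, and support nothing by themselves. The study used MOLM-13, an established human acute myeloid leukaemia line that carries a KMT2A fusion. Its RNA-seq groups carried either a control hairpin (shCONTROL) or one that targets BCLAF1 (shBCLAF1). The third group was RNA recovered with the BCLAF1 protein from shCONTROL cells by RNA immunoprecipitation (RIP). BCLAF1 is a nuclear protein linked to transcription and RNA processing. All 3 groups had 3 replicates, were grown in RPMI medium and received doxycycline for 4 days at 200 ng/µL, so the controls carry the drug as well. Per the labels, each RIP started from more cells than each RNA-seq sample, and all samples were of batch 1. The labels name 1 hairpin condition against BCLAF1 and no mock precipitation, so the RIP was read against shCONTROL total RNA.

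Serine is made from a glycolysis intermediate in 3 steps, by PHGDH, then PSAT1, then PSPH. The SHMT enzymes split serine into glycine and a carbon unit carried on folate. In mitochondria SHMT2, MTHFD2 and MTHFD1L turn that unit into formate, which leaves for the cytosol, where MTHFD1 and SHMT1 use or rebuild folate carriers for purine, thymidylate and methionine synthesis. ALDH1L2 instead oxidises the mitochondrial unit to carbon dioxide with formation of NADPH, and ASNS makes asparagine from aspartate and glutamine. Many of these genes are textbook targets of ATF4, the transcription factor of the amino acid response, and some leukaemias are known for their need of external asparagine. RPMI medium supplies serine, glycine and asparagine.

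RefSeq promoter windows (GRCh38.p14, from 250 bases before to 50 bases after a start site) were available for 7 of the 10 genes. PSPH, SHMT2 and ALDH1L2 had no entry. The windows were searched on both strands for TGATGCAA, the core of the amino acid response element, for its looser form TGATGNAA, which contains every TGATGCAA, and for CACGTG, the E-box that MYC and related factors read. Of the 7 genes, 1 held TGATGCAA, 2 held TGATGNAA and 2 held CACGTG. Among all 27305 genes with a window the shares were 1.08%, 4.46% and 8.77%, and among all 35116 windows they were 0.866%, 3.62% and 7.26%. Genes with several start sites have several windows, and the 7 genes had 11. The matched stretches are shown because ATF4 and MYC were among the regulators measured below. Each is 30 bases, written 5′ to 3′ on the strand that carries the motif as spelled, with the match in capitals.
ASNS, chr7:97872458-97872487, minus strand, match starting 68 bases before the start site: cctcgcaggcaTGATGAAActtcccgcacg
MTHFD1L, chr6:150866346-150866375, plus strand: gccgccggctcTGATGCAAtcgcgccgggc
MTHFD1L, chr6:150866320-150866349, plus strand: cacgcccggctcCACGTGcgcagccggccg
MTHFD1, chr14:64388326-64388355, plus strand, match starting 15 bases before the start site: ccagtccctaagCACGTGggttgggttgtc
A match is a string of letters, not a measured site of binding, and a window without one says only that these letters were not in it.

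Library totals ran from 25819144 to 36635268 counts. Levels below are CPM, gene counts scaled to a common library size, after TMM scaling over the 9 libraries, in which 3 counts correspond to 0.079 to 0.118 CPM. Transcript lengths were not used here, so levels are not compared between genes. BCLAF1 itself was at 325, 328 and 312 CPM in shCONTROL and at 115, 125 and 99.9 CPM in shBCLAF1, which is 35.2% of control. It was at 1143, 1059 and 1034 CPM in the RIP. All 8 myeloid markers examined (CD33, FLT3, SPI1, MPO, LYZ, CSF1R, HOXA9 and MEIS1) were detected. Of the markers of other cells, MS4A1, CD3E, HBB, EPCAM and COL1A1 were at 0 in every library, and CD3D was at 11.4 CPM in shCONTROL. The labels do not say that replicates were separate cultures, so p-values measure the spread between these libraries, which may be technical.

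The first comparison was between the hairpins. Summed over the 10 genes, the shCONTROL libraries held 1859, 2123 and 1994 CPM and the shBCLAF1 libraries 951, 926 and 895 CPM. The lower sums came from part of the group. All 10 genes passed the filter on low counts. Over all 16961 genes tested, 16.9% were called lower and 15.5% higher (edgeR's quasi-likelihood test, Benjamini-Hochberg adjusted p under 0.05), and the median log2 fold change was 0.02. Of the 10 genes, 7 were called lower and none higher, with a median of -0.89. Those counts are a description, because the genes were chosen from this contrast. The 7 were PHGDH and PSAT1 of the serine pathway, all 4 mitochondrial enzymes and ASNS. The cytosolic enzymes SHMT1 and MTHFD1, and PSPH, were not called. In bulk samples, fewer cells that make a transcript and less of it per cell cannot be told apart.

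**Figure D1:**
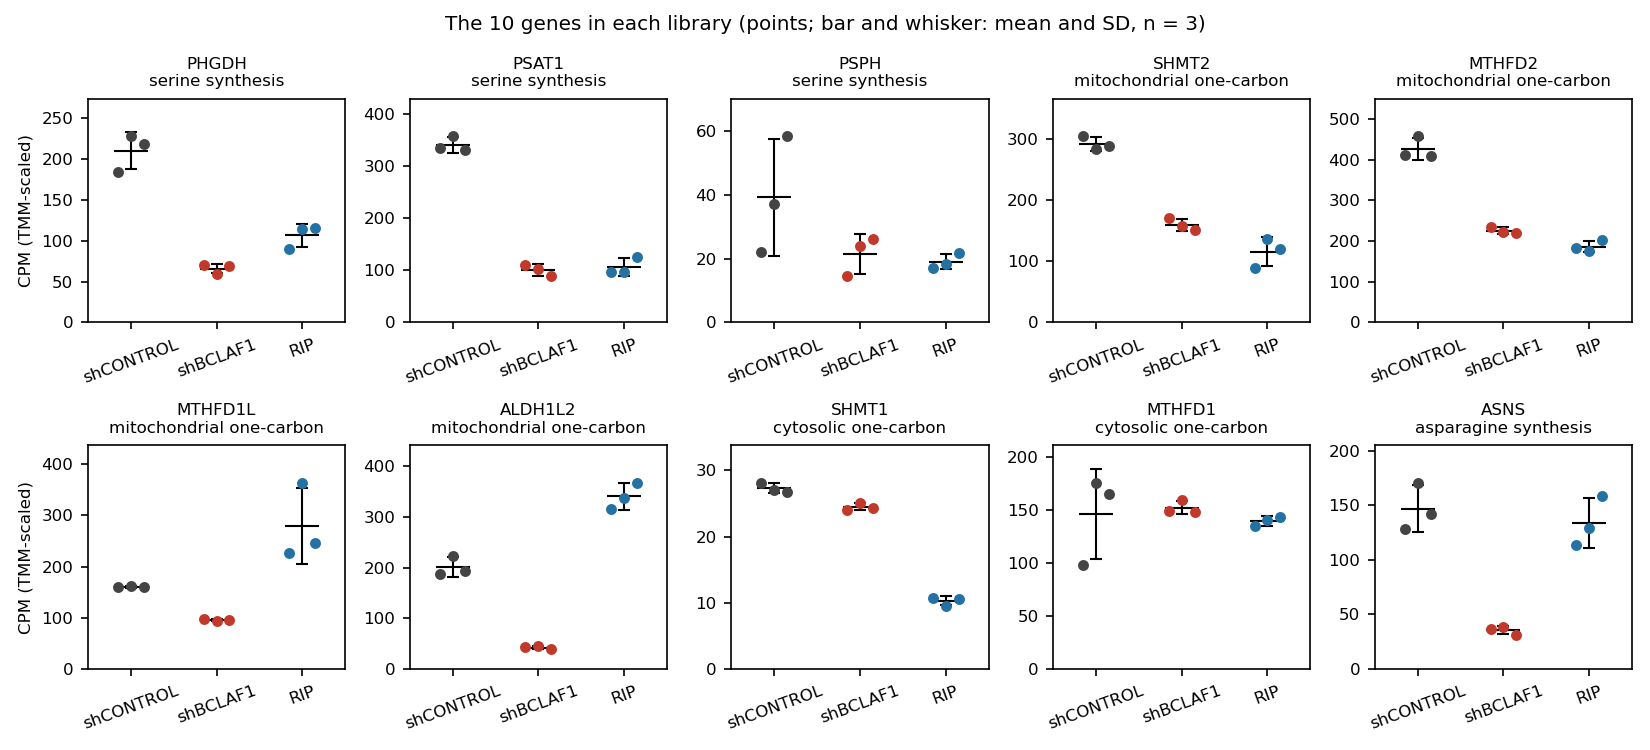
Level of each of the 10 genes in every library, in TMM-scaled CPM (y axis, from 0, scaled separately for each gene), by group, with bars at the mean and whiskers of 1 SD. The shBCLAF1 points lie below all shCONTROL points for 8 genes, while PSPH and MTHFD1 overlap and the SHMT1 groups sit close together. The share of all genes tested whose groups lie apart was not computed, so the 8 are a description only.

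In the serine pathway, PHGDH and PSAT1 were called lower and PSPH was not. PHGDH, which commits the glycolysis intermediate to serine, was at 184, 228 and 218 CPM in shCONTROL and at 69.6, 59.7 and 68.5 CPM in shBCLAF1. PSAT1, the aminotransferase of the middle step, was at 333, 357 and 330 CPM and then at 110, 103 and 88.8 CPM. In both genes every shBCLAF1 library lay below every shCONTROL library, at 31.4% and 29.6% of the control mean. Their log2 fold changes were -1.67 (SE 0.10) and -1.75 (SE 0.09), and 1.47% and 1.34% of all genes tested were lower than they were. Because both moved together, the ratio of PSAT1 to PHGDH counts stayed near 1.63 ± 0.158 in shCONTROL and 1.53 ± 0.217 in shBCLAF1 (SD, n = 3).

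PSPH, the phosphatase of the last step, was not called by edgeR, and its difference from PHGDH and PSAT1 was not tested. PSPH varied widely in shCONTROL, at 22.1, 37.0 and 58.4 CPM, and stood at 14.5, 23.9 and 26.2 CPM in shBCLAF1. The groups overlapped, since shCONTROL replicate 1 lay below shBCLAF1 replicates 2 and 3. The log2 fold change was -0.86 (SE 0.39), and it was -0.44 without shCONTROL replicate 3. With DESeq2 in place of edgeR, PSPH was called lower.

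The 4 mitochondrial genes were lower in every shBCLAF1 library, but not to the same extent. ALDH1L2 was at 187, 223 and 194 CPM in shCONTROL and at 42.6, 44.4 and 39.8 CPM in shBCLAF1. Its level was 21.0% of control, a log2 fold change of -2.25 (SE 0.08), the farthest from 0 among the 10 genes. Only 0.926% of all genes tested were lower still. SHMT2, which releases the carbon unit from serine, was at 305, 284 and 289 CPM and then at 170, 158 and 152 CPM. MTHFD2, the dehydrogenase and cyclohydrolase that follows it, was at 413, 458 and 410 CPM and then at 236, 222 and 220 CPM. These formed a pair with like changes, at 54.7% and 52.9% of control and log2 fold changes of -0.87 (SE 0.06) and -0.91 (SE 0.06). MTHFD1L, the synthetase that frees formate, was at 159, 162 and 160 CPM and then at 98.0, 92.9 and 95.6 CPM. Its replicates were the closest to each other of the mitochondrial genes in shCONTROL, and its log2 fold change was -0.75 (SE 0.04), or 59.4% of control.

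The relation between the transcripts of ALDH1L2, which oxidises the folate carbon, and MTHFD2, on the route to formate, also differed between the hairpins. Within each library, ALDH1L2 counts divided by MTHFD2 counts gave 0.453, 0.486 and 0.472 in shCONTROL and 0.181, 0.200 and 0.181 in shBCLAF1. Such a ratio does not depend on library scaling. It is not per length and says nothing of which transcript was more abundant, only that the relation between them differed between the hairpins without overlap.

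The cytosolic enzymes stood apart from their mitochondrial counterparts. SHMT1 was at 28.2, 27.0 and 26.8 CPM in shCONTROL and at 24.1, 25.1 and 24.3 CPM in shBCLAF1. The groups did not overlap, yet the difference was small, at 89.7% of control and a log2 fold change of -0.15 (SE 0.05). SHMT2 counts divided by SHMT1 counts gave 10.9, 10.5 and 10.8 in shCONTROL and 7.09, 6.28 and 6.24 in shBCLAF1. MTHFD1, which carries 3 folate activities on a single chain, was at 98.1, 176 and 165 CPM and then at 149, 159 and 149 CPM. Its low value in shCONTROL replicate 1 set the direction: the log2 fold change was 0.06 (SE 0.21) with that library and -0.15 without it.

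ASNS was at 128, 171 and 142 CPM in shCONTROL and at 36.5, 38.4 and 31.4 CPM in shBCLAF1. The highest shBCLAF1 library was far below the lowest shCONTROL library. The mean was 24.1% of control, with a log2 fold change of -2.05 (SE 0.13), and 1.06% of all genes tested were lower. Beside ALDH1L2 it had the strongest decrease of the 10 genes.

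**Figure D2:**
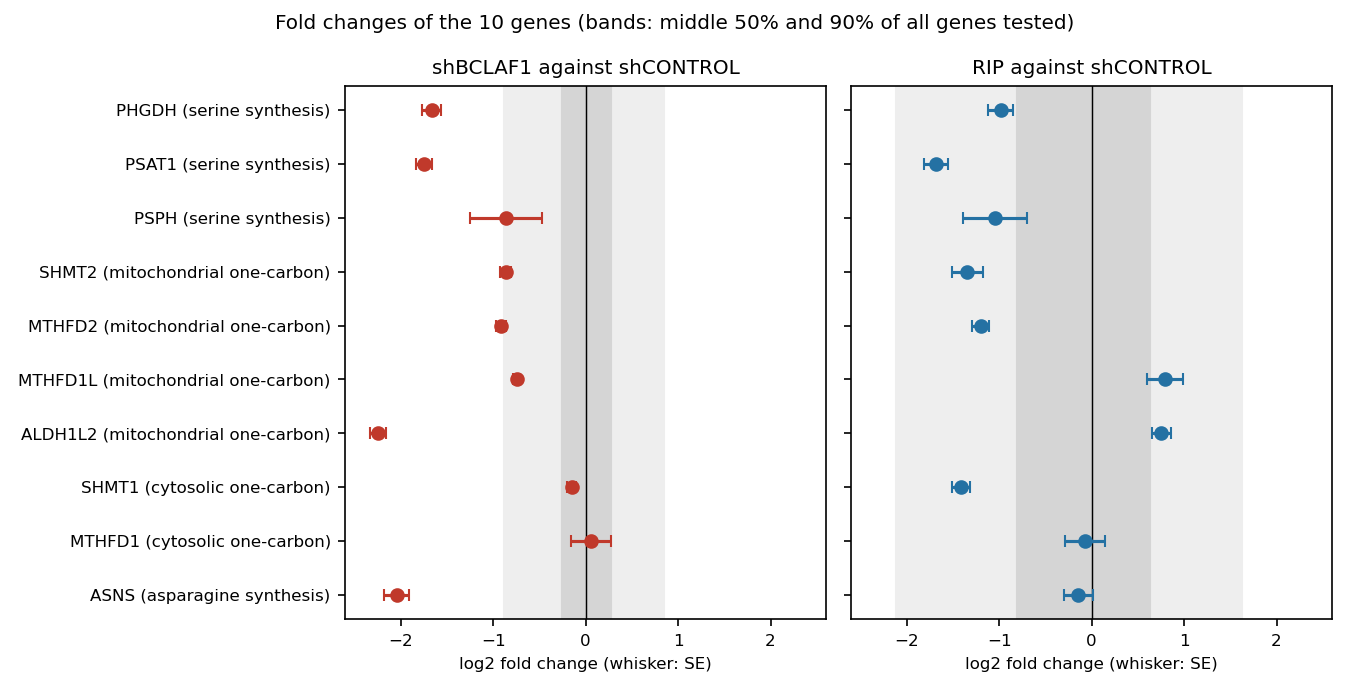
Log2 fold change of each of the 10 genes against shCONTROL (points, whiskers of 1 standard error), after knock-down (left) and in the RIP (right); shaded bands hold the middle 50% and 90% of all genes tested. ALDH1L2 is at -2.25 after knock-down and at 0.76 in the RIP, and ASNS is at -2.05 and -0.14, while PSAT1 is low in both at -1.75 and -1.68; both contrasts use the same shCONTROL libraries.

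Processed copies of some of these genes could share reads with them. The table held 16 symbols of pseudogenes or of antisense or divergent transcripts named after these genes. Of these, 5 had counts above 0, and all 5 were pseudogenes. PSAT1P3 had 201, 188 and 178 counts in shCONTROL and 62, 65 and 52 in shBCLAF1, a log2 fold change of -1.73, close to that of PSAT1 itself. MTHFD2P7 had 162, 187 and 180 counts and then 137, 120 and 95, with a log2 fold change of -0.68. SHMT1P1 had 197, 214 and 238 counts and then 215, 277 and 292. How reads were divided between a gene and its copies is not given in the sources used here, so the levels of PSAT1, MTHFD2, SHMT1, MTHFD1 and PSPH carry that uncertainty.

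The surrounding pathways were then examined in 60 other genes, listed by function. The lists, like those of regulators and proliferation genes below, were drawn up with earlier results of these data known. Most genes named from them are those with the smallest adjusted p after knock-down. Their knock-down adjusted p-values are therefore given as a description. Of these, 47 were tested after knock-down: 20 fell, 3 rose and 24 did not pass the test, with a median log2 fold change of -0.28. In a single fit of all 9 libraries, 13 passed in place of 23, with 12 lower and 1 higher. The counts by list below stand beside the 16.9% lower and 15.5% higher among all genes tested, and differences between lists were not tested.

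Other serine and glycine reactions could be read only in part. Of the 11 genes listed, 3 (GLDC, AGXT and DAO) were at 0 in every library. AMT, GCSH and SDS were tested but low, with means of 0.713, 2.33 and 0.278 CPM in shCONTROL. Of 8 tested genes of other serine and glycine reactions, 2 rose and none fell, with a median of -0.06. DLD, a subunit of the glycine cleavage system and of the pyruvate dehydrogenase complex, rose from 118 ± 1.46 to 143 ± 5.27 CPM (SD, n = 3), a log2 fold change of 0.28 (SE 0.04) with an adjusted p of 0.00322 by edgeR's quasi-likelihood test. SDSL, a serine dehydratase relative, passed at 0.59 (SE 0.14, edgeR adjusted p = 0.0221), but it was near 3 CPM and lost the call without shCONTROL replicate 2 or 3 or any shBCLAF1 replicate (edgeR adjusted p between 0.0506 and 0.0657) and in the fit of all 9 libraries (0.139). SRR, serine racemase, was at -0.38 with an edgeR adjusted p of 0.0565.

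Folate genes outside the 10 were also mostly short of the threshold, with 3 of 11 tested lower, none higher and a median of -0.05. MTHFS, which returns a storage form of folate to use, fell from 10.9 to 7.24 CPM (log2 fold change -0.58, SE 0.10, edgeR adjusted p = 0.00711).

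The methionine cycle and transsulfuration had 6 of 10 tested genes lower and none higher, with a median of -0.39. CTH, the cystathionine lyase that yields cysteine, fell from 25.4 ± 4.56 to 7.29 ± 0.324 CPM (SD, n = 3), a log2 fold change of -1.79 (SE 0.14, edgeR adjusted p = 4.69e-04). CBS, which joins serine to homocysteine in the step before, fell from 5.90 to 2.62 CPM (-1.15, SE 0.14, edgeR adjusted p = 0.00184). MTR, methionine synthase, fell from 190 to 139 CPM (-0.45, SE 0.06, edgeR adjusted p = 0.00200), and its call was lost in the fit of all 9 libraries (0.0960). MAT2A, named after its values were seen, was among the 6 at -0.17 (SE 0.04, edgeR adjusted p = 0.0277), and it lost its call in 7 of 13 alternatives, among them every fit without 1 shCONTROL library (0.0726 to 0.124) and the fit of all 9 libraries (0.582).

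Around asparagine and aspartate, 2 of 6 tested genes fell and 1 rose, with a median of -0.03. ASS1, which uses aspartate to build argininosuccinate, fell from 223 ± 17.5 to 53.6 ± 5.93 CPM (SD, n = 3), a log2 fold change of -2.05 (SE 0.10, edgeR adjusted p = 1.41e-04). ASL, the next enzyme of arginine synthesis, rose by 0.60 on the log2 scale (SE 0.13, edgeR adjusted p = 0.0141), with the call lost in the fit of all 9 libraries (0.0541). CAD, the first enzyme of pyrimidine synthesis, fell from 208 to 153 CPM (-0.44, SE 0.07, edgeR adjusted p = 0.00388).

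All 6 purine synthesis genes, whose pathway takes glycine and formyl groups from the folate route, were lower, with a median of -0.60. PAICS, an enzyme of the middle of this pathway, fell from 408 ± 11.5 to 243 ± 7.79 CPM (SD, n = 3), a log2 fold change of -0.74 (SE 0.04, edgeR adjusted p = 1.87e-04). ADSL, adenylosuccinate lyase, fell by 0.56 (SE 0.04, edgeR adjusted p = 4.17e-04). ATIC, which takes up the last formyl group, fell by 0.38 (SE 0.04, edgeR adjusted p = 8.44e-04), and its call was lost in the fit of all 9 libraries (0.0719). The decreases were smaller than those of PHGDH, PSAT1, ALDH1L2 and ASNS.

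Proline, glutamine and alanine synthesis had 3 of 6 genes lower and none higher, with a median of -0.55. GPT2, a mitochondrial alanine aminotransferase, fell from 111 ± 10.7 to 23.9 ± 1.19 CPM (SD, n = 3), a log2 fold change of -2.21 (SE 0.08, edgeR adjusted p = 9.73e-05). PYCR1, the mitochondrial enzyme of the last proline step, fell by 1.05 (SE 0.07, edgeR adjusted p = 2.55e-04). ALDH18A1, which opens proline synthesis from glutamate, fell by 0.82 (SE 0.07, edgeR adjusted p = 4.78e-04).

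**Figure D3:**
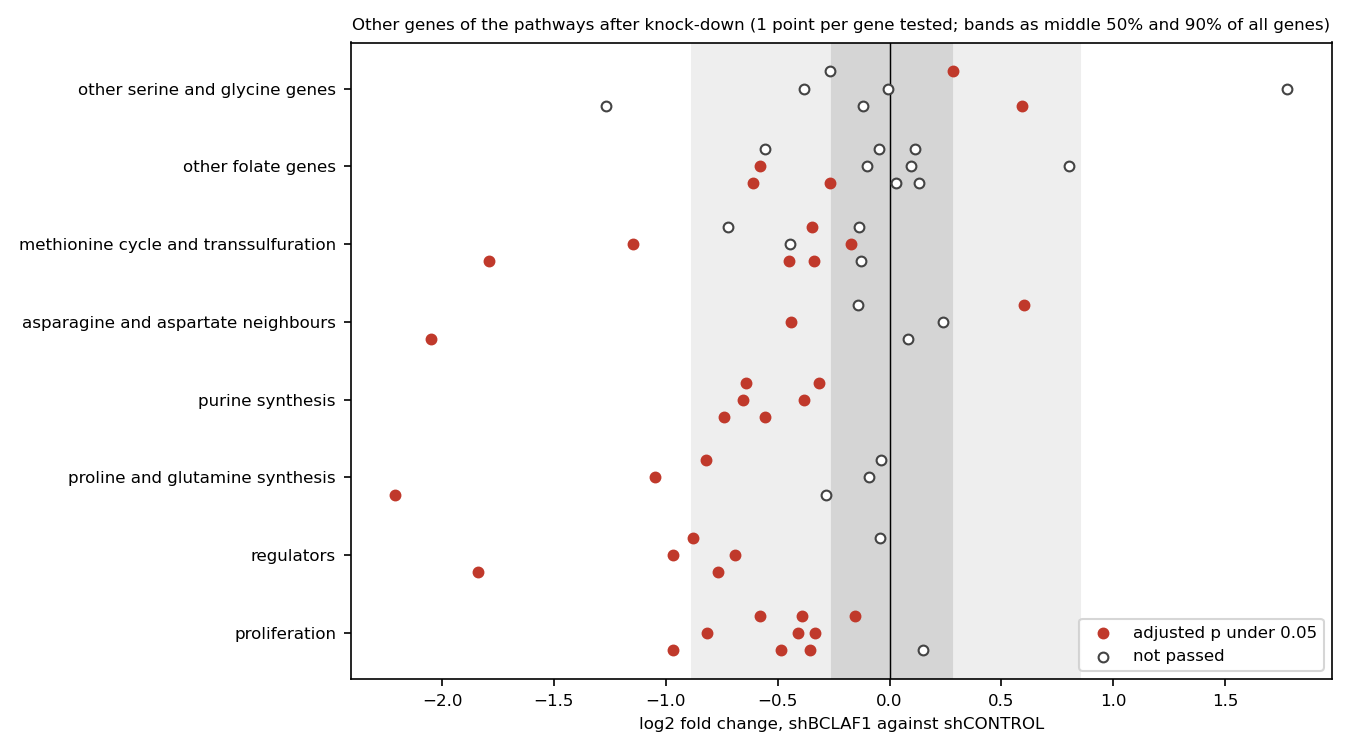
Log2 fold change after knock-down (x axis) of each tested gene of the pathway, regulator and proliferation lists, the 10 enzymes left out, by list (y axis), with filled points for genes past the threshold and bands for the middle 50% and 90% of all genes. All 6 purine genes lie below 0, whereas the other serine and glycine genes centre on -0.06 and the other folate genes on -0.05.

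Among 6 transcription factors that act on these pathways, 5 fell and none rose, with a median of -0.82. ATF4 was at 560, 572 and 544 CPM in shCONTROL and at 298, 268 and 289 CPM in shBCLAF1 (log2 fold change -0.97, SE 0.05, edgeR adjusted p = 1.64e-04). MYC fell from 679 ± 14.2 to 368 ± 7.25 CPM (SD, n = 3), by 0.88 on the log2 scale (SE 0.03, edgeR adjusted p = 9.73e-05). DDIT3, the ATF4 target also called CHOP, fell from 23.5 ± 7.08 to 6.52 ± 0.969 CPM (SD, n = 3), by 1.84 (SE 0.24, edgeR adjusted p = 0.00252). CEBPB fell by 0.69 (SE 0.09, edgeR adjusted p = 0.00224). ATF5 fell by 0.77 (SE 0.11, edgeR adjusted p = 0.00321), with the call lost in the fit of all 9 libraries (0.133). NFE2L2, the factor of the oxidative stress response, was at -0.04 with an edgeR adjusted p of 0.895.

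Other gene groups moved with the same contrast. Of 10 proliferation genes, 9 fell, with a median of -0.40, and MKI67 did not pass, at 0.15. Their summed level ran from 3785 to 4071 CPM in shCONTROL and from 3050 to 3296 CPM in shBCLAF1. PCNA fell by 0.97 (SE 0.05, edgeR adjusted p = 2.00e-04), MCM6 by 0.82 (SE 0.04, edgeR adjusted p = 1.85e-04) and RRM2 by 0.33 (SE 0.04, edgeR adjusted p = 0.00129). Of the 8 myeloid markers, CD33, SPI1 and LYZ rose and FLT3, HOXA9 and MEIS1 fell, and the summed level of the 8 ran from 1660 to 1766 CPM in shCONTROL and from 3405 to 3801 CPM in shBCLAF1. LYZ made up that difference, at means of 729 CPM in shCONTROL and 2638 CPM in shBCLAF1. The part of these shifts in the values of the 10 genes was not tested.

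The second comparison was between RNA recovered with BCLAF1 and shCONTROL total RNA. Of the 10 genes, 6 were lower in the RIP, 2 were higher and 2 did not pass the test. Among all 16727 genes tested, 24.7% were lower and 24.6% higher, so calls in this contrast were common, and the median log2 fold change was -0.05. The median of the 10 genes was -1.01. This contrast shares its shCONTROL libraries with the knock-down. A value below 0 means a smaller share of the RIP library than of total RNA, and without a mock precipitation no value marks a transcript as bound or unbound.

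All enzymes of serine synthesis were lower in the RIP. PSAT1 was at 95.8, 97.4 and 126 CPM in the RIP, 31.2% of the shCONTROL mean, with a log2 fold change of -1.68 (SE 0.13, edgeR adjusted p = 3.47e-04). PHGDH was at 90.3, 114 and 116 CPM, with a log2 fold change of -0.98 (SE 0.14, edgeR adjusted p = 0.00208). Neither gene's RIP libraries overlapped shCONTROL. With all 6 RNA-seq libraries as the reference, of which the shBCLAF1 libraries are low in PHGDH, its value was -0.14 (edgeR adjusted p = 0.286). PSPH was at 17.2, 18.1 and 21.8 CPM, all below its lowest shCONTROL library. Its call was at the threshold (-1.04, SE 0.35, edgeR adjusted p = 0.0483) and did not pass in 8 of 14 alternatives, with adjusted p between 0.0113 and 0.129 over them. Without shCONTROL replicate 3 its log2 fold change was -0.63 (edgeR adjusted p = 0.109).

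The mitochondrial genes split in the RIP. SHMT2 was at 89.6, 137 and 121 CPM, with a log2 fold change of -1.34 (SE 0.17, edgeR adjusted p = 0.00146). MTHFD2 was at 182, 175 and 202 CPM, at -1.20 (SE 0.10, edgeR adjusted p = 3.79e-04). Both were lower in every RIP library than in any shCONTROL library. ALDH1L2 was at 316, 338 and 368 CPM, all above its shCONTROL values, at 0.76 (SE 0.11, edgeR adjusted p = 0.00212), or 169% of control. MTHFD1L was at 227, 364 and 247 CPM, at 0.79 (SE 0.19, edgeR adjusted p = 0.0167). The ALDH1L2 call held in all 14 alternatives, whereas that of MTHFD1L was lost without shCONTROL replicate 1, 2 or 3 (edgeR adjusted p of 0.0606, 0.0596 and 0.0607). ALDH1L2 counts divided by MTHFD2 counts were 1.74, 1.93 and 1.82 in the RIP, above every RNA-seq library.

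The cytosolic enzymes and ASNS gave different values. SHMT1 was at 10.7, 9.52 and 10.6 CPM, with a log2 fold change of -1.41 (SE 0.10, edgeR adjusted p = 2.86e-04). SHMT1, almost level between hairpins, was therefore among the lowest of the 10 in the RIP. MTHFD1 was at 135, 141 and 143 CPM, within the spread of shCONTROL, at -0.07 (SE 0.22, edgeR adjusted p = 0.804). Without shCONTROL replicate 1 it was at -0.29 (edgeR adjusted p = 0.0796). ASNS was at 113, 129 and 158 CPM and overlapped shCONTROL, at -0.14 (SE 0.16, edgeR adjusted p = 0.492). With all 6 RNA-seq libraries as the reference the ASNS value was 0.89 (edgeR adjusted p = 4.48e-04), since that reference includes the low shBCLAF1 libraries.

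Of the 6 regulators, 2 were higher in the RIP and none lower, beside 24.6% and 24.7% of all genes tested. ATF4 was at 864, 880 and 1139 CPM, with a log2 fold change of 0.78 (SE 0.13, edgeR adjusted p = 0.00455). DDIT3, at a mean of 67.4 CPM, had a log2 fold change of 1.51 (edgeR adjusted p = 0.00314). MYC was at 0.46 (edgeR adjusted p = 0.0564) and passed in 7 of 14 alternatives, and ATF5 was at -0.33 but lower at -0.81 without RIP replicate 2 (edgeR adjusted p = 0.0128).

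The gene's length on the chromosome varied with the RIP value, a description made after the values were seen. By RefSeq annotation (GRCh38.p14), the 6 shortest of the 10 were SHMT2 (chromosome 12, 57229711 to 57234935, 5.22 kb), MTHFD2 (chromosome 2, 74198615 to 74217565, 19.0 kb), PHGDH (chromosome 1, 119711934 to 119744215, 32.3 kb), PSAT1 (chromosome 9, 78297125 to 78330093, 33.0 kb), SHMT1 (chromosome 17, 18327873 to 18363550, 35.7 kb) and PSPH (chromosome 7, 56011064 to 56051444, 40.4 kb). These 6 were the genes lower in the RIP. The others were ALDH1L2 (chromosome 12, 105019790 to 105084458, 64.7 kb), MTHFD1 (chromosome 14, 64388353 to 64460025, 71.7 kb), ASNS (chromosome 7, 97851677 to 97928441, 76.8 kb) and MTHFD1L (chromosome 6, 150865702 to 151101887, 236 kb). Their RIP log2 fold changes ran from -0.14 to 0.79. Each span covers the whole annotated gene. The minus-strand ASNS start site beside the stretch shown above is at 97872408, inside the ASNS span. Transcripts from that site cover less than 76.8 kb. The order of the 10 genes and the correlation below were not recomputed with such shorter spans. Spearman's rho between span and RIP log2 fold change was 0.733 over the 10 genes. Across the 13873 tested genes with a span it was 0.200, with a median RIP value of -0.54 in the shortest 10% of genes and 0.39 in the longest 10%. Over genes, which share libraries and are no replicates, such values are descriptive. For the knock-down, rho was 0.115 over the 10 genes and -0.019 over 13961 genes.

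**Figure D4:**
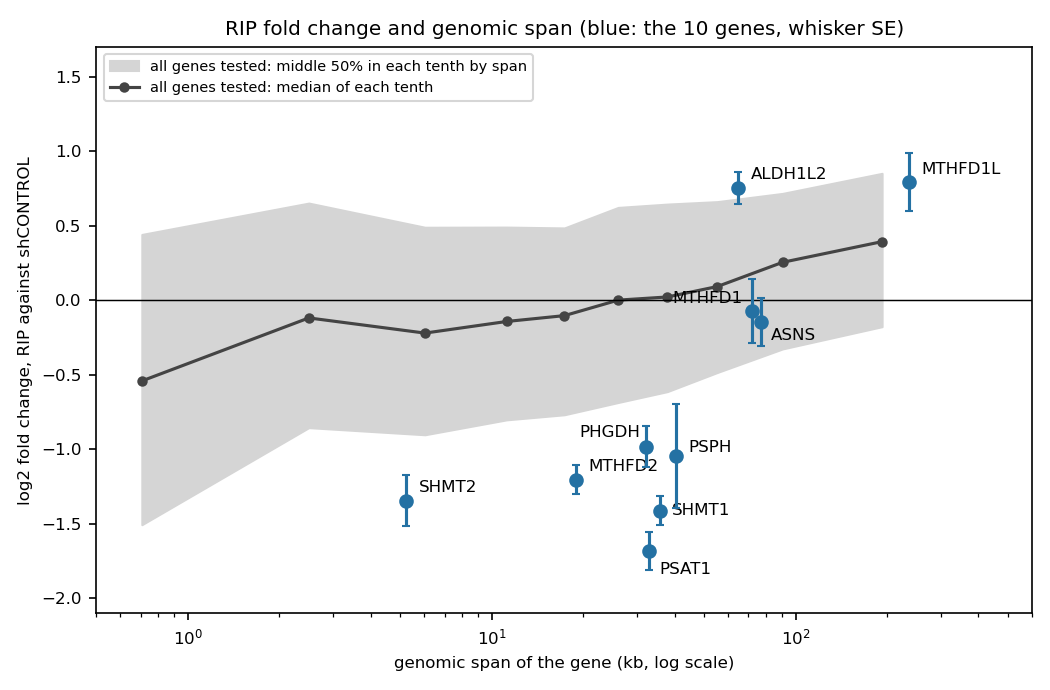
RIP log2 fold change (y axis) against the genomic span in kb (x axis, log scale) for the 10 genes (blue, whiskers of 1 standard error), with the median (line) and middle 50% (band) of all tested genes in 10 bins of nearly equal gene number. The 6 genes up to 40.4 kb lie at or below -0.98, under the band, and the 4 longer genes at or above -0.14. Spans cover the whole annotated gene, and ASNS also has a start site inside its span, from which transcripts are shorter.

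Across the 9 libraries the 10 genes did not follow a single course. Pearson's r of each gene's log2 level with the mean of the other 9 was 0.952 for PHGDH, 0.909 for PSAT1 and 0.799 for MTHFD2. It was 0.713 for PSPH, 0.690 for SHMT2 and 0.649 for ASNS. ALDH1L2 (0.361), SHMT1 (0.183), MTHFD1L (0.086) and MTHFD1 (-0.014) were the least like the rest. Among 11846 other genes, those most like the mean of the 10 were CTH (r = 0.976), ELP2 (0.957), LINC03073 (0.952), SLC38A1 (0.950) and SESN2 (0.947). SLC38A1, a neutral amino acid transporter, was at 433 CPM in control cells, 116 CPM after knock-down and 177 CPM in the RIP. SESN2, a leucine sensor upstream of mTORC1, was at 88.4, 21.3 and 39.1 CPM. All these correlations are descriptions over 9 libraries in 3 groups, and how much of each lies between the groups was not computed.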

How the data were processed

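The authors deposited estimated counts per gene as whole numbers, not normalized, in 1 table of 9 libraries. The submitters' processing notes name STAR 2.7.11b, StringTie 2.2.3 and hg38. The annotation, the counting and the treatment of strand and multi-mapped reads are not given in the sources used here. Libraries were ribosomal RNA-depleted total RNA, per the labels' protocols. Of the table's genes, 39048 carried a symbol. A row that names no gene held 2.18% to 3.75% of counts in 8 libraries, had no value in RIP replicate 1 and was left out. All sample columns were mapped by title.

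Each contrast was fitted on its 6 libraries with edgeR 4.0.16 in R 4.3.3 (limma 3.58.1 loaded with it): default filter on low counts, TMM, quasi-likelihood F-test, prior count 2, Benjamini-Hochberg adjustment over all genes tested and a threshold of 0.05. Standard errors are the unshrunken coefficient over the square root of F. The procedure was tested on simulated data. Figures were drawn with matplotlib 3.10.9. The members and lists were chosen with earlier results of these data known. Named genes are the 10 members, every regulator, up to 3 genes per list with the smallest adjusted p after knock-down, and the 5 genes most like the mean of the members among those with a mean count of at least 50. Alternatives were other scalings, filters and fits, DESeq2 1.42.0, a replicate block, another RIP reference and each replicate left out. Replicate pairs differed beyond sampling noise, which cannot tell separate cultures from separate preparations of the same culture. Each library was entered as its own replicate. The values of some listed genes are not reported here.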

Additional observations from a re-analysis of the deposited data

How the results depend on the processing

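The knock-down gave 5484 called genes among 16961 tested. A fit of all 9 libraries gave 2447 among 17419 (1129 higher, 1318 lower), and there were 681 (301 higher, 380 lower) when a log2 change of 1 or more was also required. The count of other pathway genes called after knock-down went from 23 to 13 in the fit of all 9 libraries. In the RIP, 4099 of 8231 genes remained above that fold (1846 higher, 2253 lower). With all 6 RNA-seq libraries as the reference, 4 named RIP values past the threshold in either fit changed sign: ASNS to 0.89, ASS1 to 0.17, GPT2 to 0.37 and LINC03073 to 0.036; that reference holds the shBCLAF1 libraries, where all 4 are low. With 1 library left out, the knock-down gave 4184 to 5372 called genes and the RIP 6334 to 8623, 7 members were called after knock-down each time, and 6 to 7 in the RIP. Each gene's deviation from its group mean was also correlated between libraries. Same-numbered libraries gave 0.014, 0.067 and 0.016 (knock-down) and -0.022, 0.007 and -0.004 (RIP). Differently numbered libraries gave -0.041 to 0.022 and -0.031 to 0.033. Values this small do not settle whether the numbers pair the libraries, and the main fits used no pairing. With a replicate block, 4809 genes were called after knock-down and 6506 in the RIP, 8 members in each; PSPH passed after knock-down at -0.79 and SDSL did not (edgeR adjusted p = 0.0520). Total counts in place of TMM moved the median of all genes by -0.11 in the RIP and by 0.05 after knock-down, where 3244 genes were then higher and 2486 lower; in the RIP 3403 were higher and 4529 lower. Depth limits the low genes most, with 3 counts at 0.079 to 0.118 CPM.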

Other observations

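In the RIP, the other pathway genes were mostly lower: of 46 tested, 29 were lower, 3 higher and 14 did not pass (edgeR's quasi-likelihood test, Benjamini-Hochberg adjusted p under 0.05), with a median log2 fold change of -0.68. Among all genes tested, 24.7% were lower and 24.6% higher. All 6 proline and glutamine genes were lower, as were 5 of 6 purine genes and 7 of 11 folate genes, with medians of -0.88, -0.68 and -0.98. PAICS was at -1.69 (edgeR adjusted p = 5.46e-04) and CTH at -1.14 (edgeR adjusted p = 0.00248).

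The 3 higher genes were named after their values were seen. MAT2A, which makes S-adenosylmethionine, was between 378 and 396 CPM in shCONTROL and at 1235, 823 and 1337 CPM in the RIP, without overlap, a log2 fold change of 1.54 that kept its call in all 14 alternatives. MTHFS was higher by 1.15 on the log2 scale (edgeR adjusted p = 0.00116). GNMT, a glycine methyltransferase, was at 0.87 on levels of 1.13 to 3.29 CPM, and it lost its call in 8 of 14 alternatives.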
